A study of Mus musculus with 281 samples.

Results

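Common myeloid progenitors (CMPs) with Irf8 transcripts were compared with CMPs that had next to none, 1 cell at a time. Of the 47 CMP cells, 17 had an Irf8 level of at least 10 TPM (a gene's length-corrected share of a cell's transcripts) and are called Irf8-high below, and 21 had less than 1 TPM and are called Irf8-low. The remaining 9 CMP cells lay between and entered neither set. Because Irf8 itself chose the cells, its own levels are given as a description only. All 281 cells of the series are single mouse bone marrow cells from C57BL/6 animals, sorted by surface proteins and sequenced with SMART-seq2, which reads whole transcripts of each cell. CMPs were sorted as lineage-negative, c-Kit+, Sca-1- cells with CD34 and low CD16/32. Granulocyte-monocyte progenitors (GMPs), used below for the same split, had high CD16/32 and were sorted as Ly6C- (45 cells) or Ly6C+. The labels give no genetic change or treatment for these groups and name no animal, so each set of cells counts as 1 sample and the differences below are described without tests.

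IRF8 is a transcription factor of the interferon regulatory factor family. It binds DNA mostly together with partners such as PU.1, at composite ETS-IRF elements, or with other interferon regulatory factors. In the bone marrow it is known for supporting monocyte and dendritic cell development and for restraining neutrophil production, and mice without it accumulate neutrophils. CMPs are classically described as the source of both GMPs and the erythroid and megakaryocytic branch, and single-cell work has found them to be a mixture.

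The Irf8 level of the 17 Irf8-high cells ran from 17.6 to 1294 TPM with a median of 379 TPM. Of the 21 Irf8-low cells, 12 had no Irf8 at all, and the highest reached 0.98 TPM. The members nearest the thresholds were an Irf8-high cell at 17.6 TPM, cells in neither set at 9.62 and 1.09 TPM, and an Irf8-low cell at 0.98 TPM. The gene lies on chromosome 8 at 120736358 to 120756694 on the plus strand (GRCm38, GENCODE M21).

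The Irf8 promoter is shown because Irf8 defines the sets. It is chr8:120736108-120736407 on the plus strand, 250 bases before to 50 bases after the RefSeq start site (GRCm38.p6). Capitals mark matches to TTCNNNGAA, a STAT-type sequence that reads the same on both strands (N is any base), which start 171 and 153 bases before the start site.

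Irf8 promoter: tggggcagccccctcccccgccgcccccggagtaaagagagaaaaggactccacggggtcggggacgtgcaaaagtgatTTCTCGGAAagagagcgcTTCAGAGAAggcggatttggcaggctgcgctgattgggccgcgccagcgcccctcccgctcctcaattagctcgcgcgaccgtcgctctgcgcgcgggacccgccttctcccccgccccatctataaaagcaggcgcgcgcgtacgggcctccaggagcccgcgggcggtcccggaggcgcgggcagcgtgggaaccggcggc

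STAT-type letters occur in 8.3% of the 32851 promoter windows of the same length, and the second Irf8 window in the RefSeq table had none, so a match is a description and not evidence of binding.

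The CMP label was checked against its sort genes. At 10 TPM or more, Kit (c-Kit) was present in 34 of 47 cells, Cd34 in 35 cells and Fcgr3 (CD16) in 8 cells. The median of Fcgr3 was 1.39 TPM, against 970 TPM over the GMP cells, and Ly6a (Sca-1) reached 10 TPM in 0 of the 47 cells. Depth is unknown in a TPM table, and the number of genes detected at 1 TPM stood in for it. It ran from 2908 to 4975 with a median of 4244 in Irf8-high cells, and from 2356 to 4267 with a median of 3050 in Irf8-low cells. List results are therefore also given for the 11 Irf8-high and 15 Irf8-low cells within the range of genes detected that both sets share, called the shared range. Cell titles begin with 1 of 2 prefixes, RHP or RMB, whose meaning the labels do not state, and both sets hold both prefixes (8 and 9 Irf8-high cells, 7 and 14 Irf8-low cells). Mitochondrially encoded transcripts made up similar shares, with medians of 5.05% and 5.28%.

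A difference below is the mean of log2(TPM + 1) in Irf8-high cells minus that in Irf8-low cells, and a gene is counted as higher or lower when it reaches 1 log2 unit. Of 12045 genes with a mean of at least 1 TPM over all 281 cells, 22.1% (2662 genes) were higher and 4.54% (547 genes) were lower in Irf8-high cells. In the shared range these shares were 15.4% and 11.6%, so the excess of higher genes was smaller among cells matched in this way. The median gene differed by 0.21 in all and by 0 in the shared range. Within RHP titles 2553 of the 12045 genes (21.2%) were higher and 1812 were lower. Within RMB titles 28.8% were higher and 7.71% lower. The counts for gene lists below are read against the values over all genes in the same cells.

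**Figure D1:**
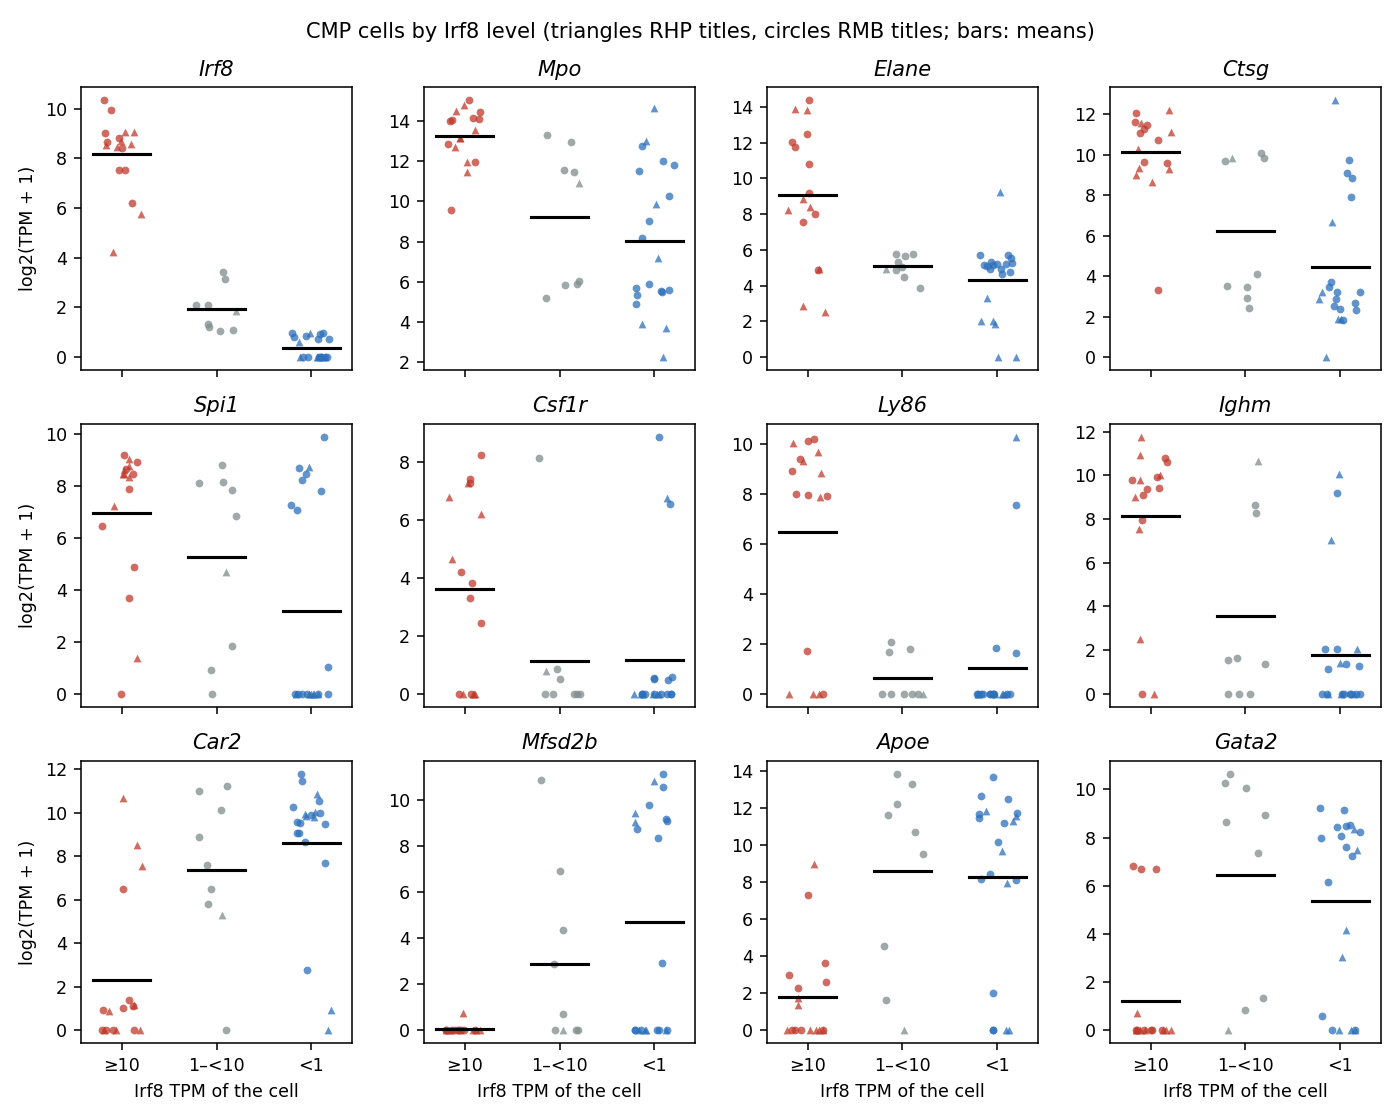
Each point is 1 of the 47 CMP cells, grouped on the x axis by Irf8 (at least 10, 1 to below 10, and below 1 TPM), with the level of the gene in the panel title on the y axis as log2(TPM + 1); triangles are RHP titles, circles RMB titles and bars the means. All 17 Irf8-high cells had at least 763 TPM of Mpo, while Irf8-low cells ran from 3.79 to 25493 TPM.

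Primary (azurophil) granule genes were higher in Irf8-high CMPs. These genes encode the peroxidase and serine proteases that promyelocytes pack into their first granules. Of 12 members measured, 10 were higher and 1 was lower (median difference 1.82). In the shared range 5 were higher and 3 lower (median 0.66). Mpo, myeloperoxidase, ran from 763 to 33685 TPM with a median of 12225 TPM in Irf8-high cells, and from 3.79 to 25493 TPM with a median of 146 TPM in Irf8-low cells. Its difference was 5.24, it was 5.37 and 5.21 within the RHP and RMB titles, and it was 3.95 in the shared range. The sets overlapped, but all 17 Irf8-high cells lay above the Irf8-low median, and 16 of 17 against 7 of 21 cells had at least 1000 TPM. Within the shared range those counts were 10 of 11 and 7 of 15.

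Elane, neutrophil elastase, ran from 4.66 to 21323 TPM with a median of 459 TPM in Irf8-high cells. In Irf8-low cells it ran from 0 to 598 TPM with a median of 32.8 TPM. The difference was 4.76 in all and 2.71 in the shared range. At least 1000 TPM was found in 7 of 17 Irf8-high cells (41.2%, exact Clopper-Pearson 95% interval 18.4% to 67.1%) and in 0 of 21 Irf8-low cells, which allows a share of up to 14.3% (3 cells of 21) or 16.1% by the exact 95% interval. These intervals and limits cover counting error only. Within the shared range, 1 of 11 Irf8-high and 0 of 15 Irf8-low cells had at least 1000 TPM. Among all cells, presence at 10 TPM differed less than presence at 1000 TPM, with 15 of 17 and 15 of 21 cells. At 1 TPM, Elane was detected in 17 of 17 and 19 of 21 cells. All 14 Irf8-low cells with RMB titles sat in a narrow band of 23.9 to 51.4 TPM, whereas the 7 with RHP titles had a median of 3.01 TPM and ran from 0 to 598 TPM. Low Elane values therefore moved with the title prefix, and its part in the shares at 10 TPM was not tested.

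Ctsg, cathepsin G, ran from 8.89 to 4707 TPM with a median of 1668 TPM in Irf8-high cells, against 0 to 6658 TPM with a median of 8.17 TPM in Irf8-low cells. A single Irf8-low cell at 6658 TPM lay above all others, and the next highest had 858 TPM. The difference was 5.71 in all and 4.33 in the shared range. Prtn3, proteinase 3, differed by 4.75 and by 3.68 in the shared range. Gstm1, a glutathione S-transferase, differed by 3.45 and by 2.59.

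Not every granule gene followed. Nkg7, a granule membrane protein best known from cytotoxic lymphocytes, averaged 366 ± 496 TPM (SD, n = 17 cells) in Irf8-high cells and 930 ± 556 TPM (SD, n = 21 cells) in Irf8-low cells. Its difference was -3.35 in all and -4.78 in the shared range. Ms4a3, a marker of granulocyte-monocyte progenitors, differed by 1.97 in all but by -1.17 in the shared range, and Ctsc, which activates the granule proteases, by 1.16 and -1.33. The direction of Ms4a3 and Ctsc thus turned among cells of the shared range.

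Promoters of Elane, Mpo and Ctsg are shown as examples of granule genes with large differences. Those of other granule genes, such as Prtn3, are not shown, and matches were not counted over the granule list. Capitals mark GAGGAAG, a PU.1-type sequence searched on both strands (CTTCCTC on the other), and in Ctsg also the STAT-type sequence. Elane is chr10:79886062-79886361 (plus strand), Mpo is chr11:87793534-87793833 (plus strand) and Ctsg is chr14:56102525-56102824 (minus strand), all from RefSeq (GRCm38.p6). The PU.1-type matches start 85 bases before the start site in Elane, 247 and 224 bases before it in Mpo, and 216 bases before it in Ctsg, where the STAT-type match starts 189 bases before.

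Elane promoter: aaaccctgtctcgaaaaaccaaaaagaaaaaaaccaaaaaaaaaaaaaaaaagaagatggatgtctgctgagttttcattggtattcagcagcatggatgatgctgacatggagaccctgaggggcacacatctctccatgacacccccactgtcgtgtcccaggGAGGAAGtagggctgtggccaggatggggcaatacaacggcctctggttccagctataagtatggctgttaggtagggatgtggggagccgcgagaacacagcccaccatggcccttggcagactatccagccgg

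Mpo promoter: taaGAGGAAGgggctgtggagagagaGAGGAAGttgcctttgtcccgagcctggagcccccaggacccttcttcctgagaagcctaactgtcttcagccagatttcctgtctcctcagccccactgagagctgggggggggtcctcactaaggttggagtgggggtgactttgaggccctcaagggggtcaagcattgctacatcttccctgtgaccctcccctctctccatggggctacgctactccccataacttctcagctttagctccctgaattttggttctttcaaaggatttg

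Ctsg promoter: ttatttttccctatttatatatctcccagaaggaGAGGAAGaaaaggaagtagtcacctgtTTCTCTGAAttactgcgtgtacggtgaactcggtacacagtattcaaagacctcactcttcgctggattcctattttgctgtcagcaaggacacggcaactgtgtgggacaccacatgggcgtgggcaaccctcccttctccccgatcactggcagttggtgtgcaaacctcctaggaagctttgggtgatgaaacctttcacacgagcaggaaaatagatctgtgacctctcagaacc

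PU.1-type letters occur in 13.6% of all windows. Counted by gene, 8409 of the 12045 genes had a promoter, and 16.4% of these held PU.1-type and 8.69% STAT-type letters. Among the 10 genes with the largest difference each way, named below, RefSeq gave a promoter for 7 of the higher and 8 of the lower genes. PU.1-type letters were found in 2 of 7 (Clec12a and Ctsg) and in 2 of 8 (Cd63 and Vamp5), and STAT-type letters in 2 of 7 (Alas1 and Ctsg) and in 1 of 8 (Bcl11a). The ETS-IRF composite GGAANNGAAA and the interferon-stimulated core GAAANNGAAA, searched on both strands, were found in 0 of 7 and 0 of 8 genes. They occur in 2.72% and 3.44% of all windows and in 2.84% and 3.78% of the 8409 genes. Their absence says only that these letters are not in these windows. STAT-type and PU.1-type letters were chosen after the values were seen.

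Genes of mature neutrophil granules were mostly near 0 in both sets. Of 19 measured members of the secondary and late granule list, 3 were higher (Hp, Lyz2 and Cybb) and 0 were lower, with a median difference of 0. Among cells of the shared range 2 were higher and 1 lower (median -0.13). Hp, haptoglobin, had a median of 195 TPM and reached 1260 TPM in Irf8-high cells, where 11 of 17 cells had it, while no Irf8-low cell exceeded 1.83 TPM. Its difference was 4.71 in all and 2.78 in the shared range. Lyz2, lysozyme, ran up to 1727 TPM with a median of 618 TPM in Irf8-high cells and up to 1541 TPM with a median of 32.4 TPM in Irf8-low cells, and its difference of 1.98 shrank to 0.36 in the shared range. Ltf (lactoferrin) and Camp (cathelicidin) averaged under 1 TPM in both sets.

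Monocyte genes were higher as a group. Of 22 measured members, 14 were higher and 0 were lower (median 1.80). Among the cells of the shared range 9 were higher and 0 lower (median 0.70). Ly86, also called MD-1, a partner of the receptor RP105, ran from 0 to 1183 TPM with a median of 258 TPM in Irf8-high cells. In Irf8-low cells its median was 0 TPM, with 1 cell at 1258 TPM and the next at 188 TPM. That cell, with an RHP title and no Irf8, also held the highest Irf8-low values of Mpo, Elane and Ctsg given above. The highest Irf8-low values of Emb and Clec12a, given below, were from the same cell. At 10 TPM Ly86 was present in 12 of 17 and 2 of 21 cells, and its difference was 5.46 in all and 3.93 in the shared range.

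Emb, embigin, an adhesion glycoprotein, had the largest difference of the monocyte list. It was detected in 17 of 17 Irf8-high cells, from 162 to 1467 TPM with a median of 852 TPM. In Irf8-low cells the median was 1.47 TPM and the highest value 707 TPM, so 10 Irf8-high cells lay above every Irf8-low cell. Its difference was 6.22, and 5.29 in the shared range. Ms4a6c, a member of the MS4A membrane protein family, had a median of 263 TPM against 0 TPM and differed by 5.85. Clec12a, an inhibitory C-type lectin receptor of myeloid cells, had a median of 523 TPM against 1.71 TPM, and 12 Irf8-high cells lay above the highest Irf8-low cell at 312 TPM. Both kept differences above 4 log2 units in the shared range (4.75 and 4.92).

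F13a1, coagulation factor XIII A, reached 10 TPM in 12 of 17 and 1 of 21 cells, with a difference of 5.21. Ccr2, the chemokine receptor that lets monocytes leave the marrow, was detected at 1 TPM in 9 of 17 Irf8-high cells and in 0 of 21 Irf8-low cells, which allows a share of up to 14.3% (3 cells) or 16.1% (exact). Its difference was 3.44 in all and 2.35 in the shared range. Klf4, a factor of later monocytes, was detected in 2 of 17 and 0 of 21 cells.

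Csf1r, the receptor for macrophage colony-stimulating factor, had the smallest difference of the monocyte and granule markers checked first (Csf1r, Elane and Mpo). It ran from 0 to 303 TPM with a median of 13.1 TPM in Irf8-high cells and from 0 to 470 TPM with a median of 0 TPM in Irf8-low cells. It was detected in 11 of 17 (64.7%, exact 95% interval 38.3% to 85.8%) and 3 of 21 cells (14.3%, 3.05% to 36.3%). The difference was 2.47 in all but 0.85 in the shared range, where 4 of 11 and 3 of 15 cells had at least 10 TPM and the mean TPM was no longer higher (37.8 and 44.7 TPM). The highest value, 470 TPM, belonged to an Irf8-low cell, and the next highest there had 107 TPM. Every CMP cell with at least 10 TPM of Csf1r in these sets also had at least 10 TPM of Elane: 9 of 17 Irf8-high and 3 of 21 Irf8-low cells had both, and 0 of 17 and 0 of 21 had Csf1r without Elane. As described above, 10 TPM of Elane was also met by all Irf8-low cells with RMB titles.

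**Figure D2:**
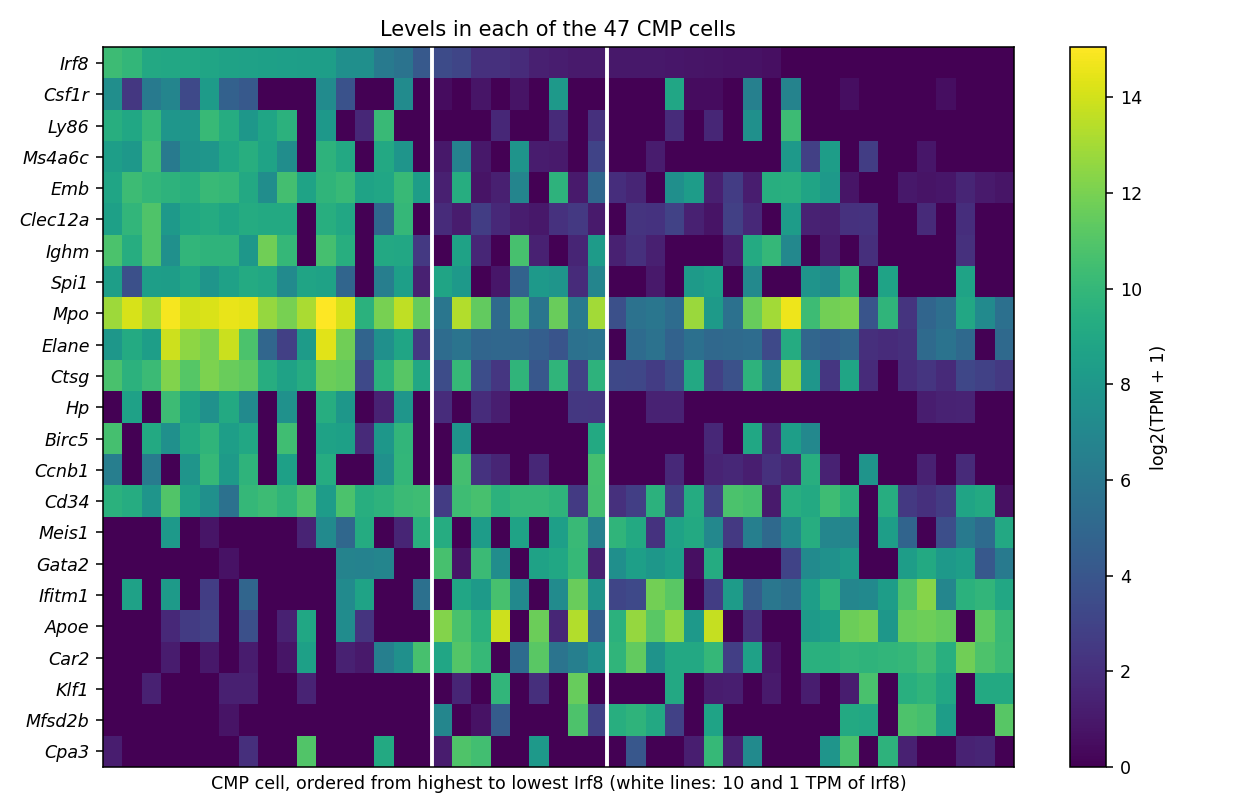
Rows are marker genes and genes with large differences, columns are the 47 CMP cells from the highest to the lowest Irf8 level, white lines stand at 10 and 1 TPM of Irf8, and colour is log2(TPM + 1). Mpo, Emb and Ctsg fill nearly all Irf8-high columns, whereas Ly86 and Csf1r are present in only some of them (12 and 9 of 17 cells at 10 TPM).

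A further 5 genes complete the 10 largest positive differences among genes that averaged at least 50 TPM and were detected in at least 50% of the cells of the higher set. These 10 also hold Emb, Ms4a6c, Clec12a, Ctsg and Ly86. Ighm, the immunoglobulin mu heavy chain, led with 6.36: its median was 676 TPM in Irf8-high cells and 0 TPM in Irf8-low cells, and it reached 10 TPM in 14 of 17 and 3 of 21 cells. Glipr1 differed by 5.55 with medians of 838 and 0 TPM, although the highest value, 1814 TPM, was in an Irf8-low cell. Anxa3, annexin A3, a calcium-dependent phospholipid-binding protein, differed by 5.47 with medians of 264 and 0 TPM. Far1, a fatty acyl-CoA reductase of ether lipid synthesis, differed by 5.37 with medians of 170 and 0 TPM. Alas1, the first enzyme of heme synthesis in non-erythroid cells, differed by 5.24 with medians of 506 and 2.59 TPM. Of 9 measured lymphoid members, 1 (Ighm) was higher and 0 lower in all cells (median 0.07). Cells of the shared range had 2 higher and 0 lower (median 0), the second being Cd79b, a chain of the B cell receptor, at 1.48 there and 0.73 in all. Within RHP titles 3 members were higher and 1 lower. Dntt was found in 1 cell of each set.

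Transcription factors of the myeloid lineage differed in both directions. Of 13 measured, 3 were higher and 2 lower (median 0.11), and among cells of the shared range 2 were higher and 0 lower (median 0). Spi1, which encodes PU.1, had a median of 345 TPM in Irf8-high and 0 TPM in Irf8-low cells. It reached 10 TPM in 15 of 17 and 8 of 21 cells and differed by 3.77, by 6.29 and 2.29 within RHP and RMB titles, and by 2.25 in the shared range. Ikzf1 (Ikaros) differed by 2.12 and, among cells of the shared range, by 3.45. Cebpd differed by 1.54 and 0.92, and was detected in 7 of 17 and 1 of 21 cells. Myc and Myb, which maintain growth and the progenitor state, differed by -1.31 and -1.14, and by -0.84 and -0.39 in the shared range. The neutrophil factor Gfi1 was detected in 0 of 17 and 0 of 21 cells, and Cebpe in 1 of 17 and 0 of 21. Of the 6 other interferon regulatory factors measured, 0 were higher and 0 lower (median 0.60), and Irf7 came nearest at 0.96, detected in 2 of 17 and 0 of 21 cells. Cells of the shared range had 1 higher (Irf7, 1.48) and 1 lower (Irf2, -1.21), with Irf3 at -0.77 against 0.65 in all (list median 0.28). Within RHP titles 1 member was higher and 2 were lower (median -0.07). Cebpb was listed at 0 in every CMP cell, and such a zero may be a failed estimate.

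Receptors also split. Of 17 measured growth factor and cytokine receptors, 7 were higher and 4 lower (median 0.66), and among cells of the shared range 5 were higher and 4 lower (median -0.03). Ifnar2, a chain of the type I interferon receptor, had a median of 154 TPM against 0 TPM and differed by 4.80 (4.39 in the shared range). Ifngr2, a chain of the interferon gamma receptor, was detected in 9 of 17 and 1 of 21 cells and differed by 3.19 (3.80), while its partner Ifngr1 differed by -1.29 (-2.28). The receptors for interleukin 6 (Il6ra, 2.27), granulocyte colony-stimulating factor (Csf3r, 2.18) and granulocyte-macrophage colony-stimulating factor (Csf2ra, 1.63) were higher. Il6ra and Csf2ra stayed above 1 log2 unit in the shared range (1.85 and 1.36) and Csf3r did not (0.99). Csf3r and Csf2ra differed by 4.56 and 3.09 within RHP titles but by 0.38 and 0.46 within RMB titles. Those for stem cell factor (Kit, -1.38) and erythropoietin (Epor, -1.56) were among the lower, with -0.28 and -1.56 in the shared range. Interferon response genes showed no common direction, with 4 of 24 higher, 3 lower and a median of 0.09, and with 2 higher, 3 lower and a median of 0.03 in the shared range. Gbp3, a guanylate-binding protein, was among the higher with 2.05, and with 0.68 in the shared range.

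Erythroid and megakaryocyte genes were lower in Irf8-high CMPs. Of 20 measured members, 11 were lower and 1 was higher (Nfe2, 1.43), with a median of -1.30. In the shared range 12 were lower and 1 higher (median -1.45). Car2, carbonic anhydrase 2, had a median of 0.93 TPM in Irf8-high cells and 879 TPM in Irf8-low cells, reached 1601 and 3534 TPM, and differed by -6.28. Mfsd2b, the sphingosine-1-phosphate exporter of red cells and platelets, reached at most 0.70 TPM in Irf8-high cells and 2264 TPM in Irf8-low cells. It was detected in 0 of 17 and 11 of 21 cells, and its difference was -4.67. Klf1, the erythroid master factor, differed by -3.12 with a highest value of 1.82 TPM against 1712 TPM, and the means of Gata1 were 0.29 and 161 TPM.

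Gata1 or Klf1 reached 10 TPM in 8 of 21 Irf8-low cells (38.1%, exact 95% interval 18.1% to 61.6%) and in 0 of 17 Irf8-high cells, which allows a share of up to 17.6% (3 cells of 17) or 19.5% by the exact interval. Within the shared range the counts were 6 of 15 and 0 of 11. Of the 8 cells, 7 also had at least 10 TPM of Mpo, a level met by 20 of all 21 Irf8-low cells. All 14 Irf8-low cells with RMB titles had at least 29.1 TPM of Mpo. Without the 8 cells with Gata1 or Klf1, 7.19% of all genes and 5 of the 20 list members were lower. Then 20.6% and 1 member were higher, and the list median was -0.46. All 20 genes with the largest differences kept their direction without them, from 4.27 to 5.73 for the higher and from -5.44 to -2.51 for the lower genes. They were chosen for large differences in these same cells, so a kept direction is no independent check.

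**Figure D3:**
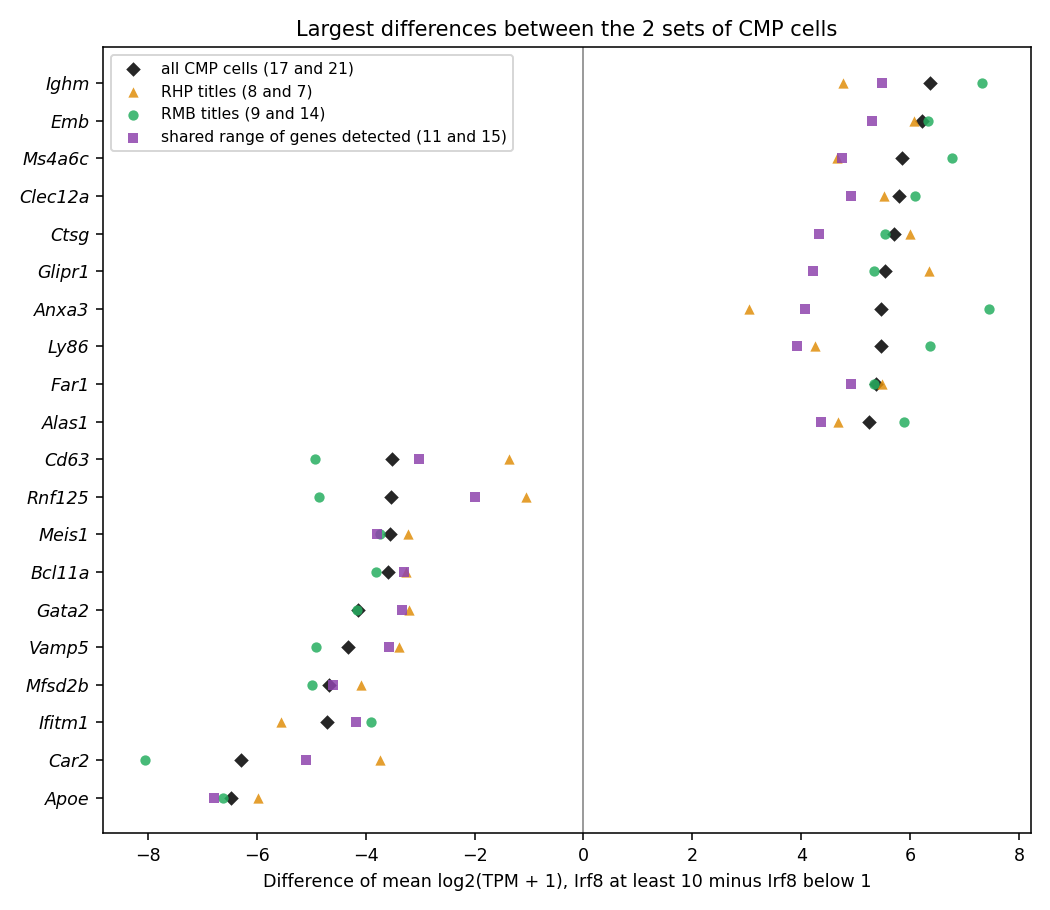
Differences of mean log2(TPM + 1), Irf8-high minus Irf8-low CMPs (x axis), for the 20 genes with the largest differences, in all cells (black), within RHP titles (orange) and RMB titles (green) and in the shared range of genes detected (purple). The rule for naming these genes required the same direction in both titles. In the shared range, a part of the cells that chose these genes, the values run from 3.93 to 5.48 and from -6.79 to -2.0.

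Some stem and multipotent progenitor genes were lower. Of 21 measured members, 7 were lower and 2 were higher (median -0.24), and among cells of the shared range 7 were lower and 1 higher (median -0.28). Within RHP titles the list had no common direction, with 6 higher and 5 lower (median 0). Of all 12045 genes, 2553 were higher and 1812 lower there. RMB titles gave 2 higher and 9 lower (median -0.53), where 28.8% of all genes were higher and 7.71% lower. Meis1, a homeobox factor of stem cells, had medians of 0 and 114 TPM and differed by -3.55, and Gata2, a factor of stem, mast and megakaryocyte cells, had medians of 0 and 181 TPM and differed by -4.14. Ifitm1, an interferon-induced membrane protein, had medians of 0 and 304 TPM and differed by -4.71. The higher members were Cd34 (3.39) and Cd48 (1.83, and 0.91 in the shared range). Cd34 had at least 47.8 TPM in all 17 Irf8-high cells with a median of 835 TPM, but reached 10 TPM in only 11 of 21 Irf8-low cells, although CD34 protein was part of the sort. Its difference was 4.25 in the shared range, but 1.46 without the 8 Irf8-low cells with Gata1 or Klf1. Of the 7 genes of sort surface proteins, 4 were higher and 1 (Kit) lower. Their median difference was 1.56 in all and -0.077 in the shared range.

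Apoe, apolipoprotein E, had the largest negative difference of the genes that met the same conditions, -6.48. Its median was 0 TPM in Irf8-high cells and 1168 TPM in Irf8-low cells, and no Irf8-high cell exceeded 504 TPM while Irf8-low cells reached 13428 TPM. The other genes of the 10 largest negative differences were Vamp5 (-4.32), a vesicle SNARE protein, Bcl11a (-3.58), a zinc finger repressor, Rnf125 (-3.53), a ubiquitin ligase, and Cd63 (-3.51), a tetraspanin of late endosomes and granules. All 20 genes of the largest differences had the same direction within both title prefixes, which the rule for naming them required. In the shared range, a part of the cells that chose these genes, they differed by 3.93 to 5.48 and by -6.79 to -2.0.

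Markers of other branches were sparse. Of 8 measured basophil and mast cell genes, 3 were lower and 0 higher (median -0.49), with the same counts and a median of -0.90 in the shared range. Ms4a2, a chain of the IgE receptor, was detected in 0 of 17 and 3 of 21 cells, and Cpa3, the mast cell carboxypeptidase, reached 10 TPM in 2 of 17 and 6 of 21 cells. Dendritic cell genes had 3 of 11 higher, 1 lower and a median of 0.13, and 2 higher, 1 lower and a median of 0.15 in the shared range. Cst3, cystatin C, was the highest with 2.85, while Batf3, Xcr1, Clec9a, Itgax and Siglech were listed at 0 in every CMP cell. Of 3 eosinophil genes measured, 0 were higher and 0 lower, also in the shared range.

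**Figure D4:**
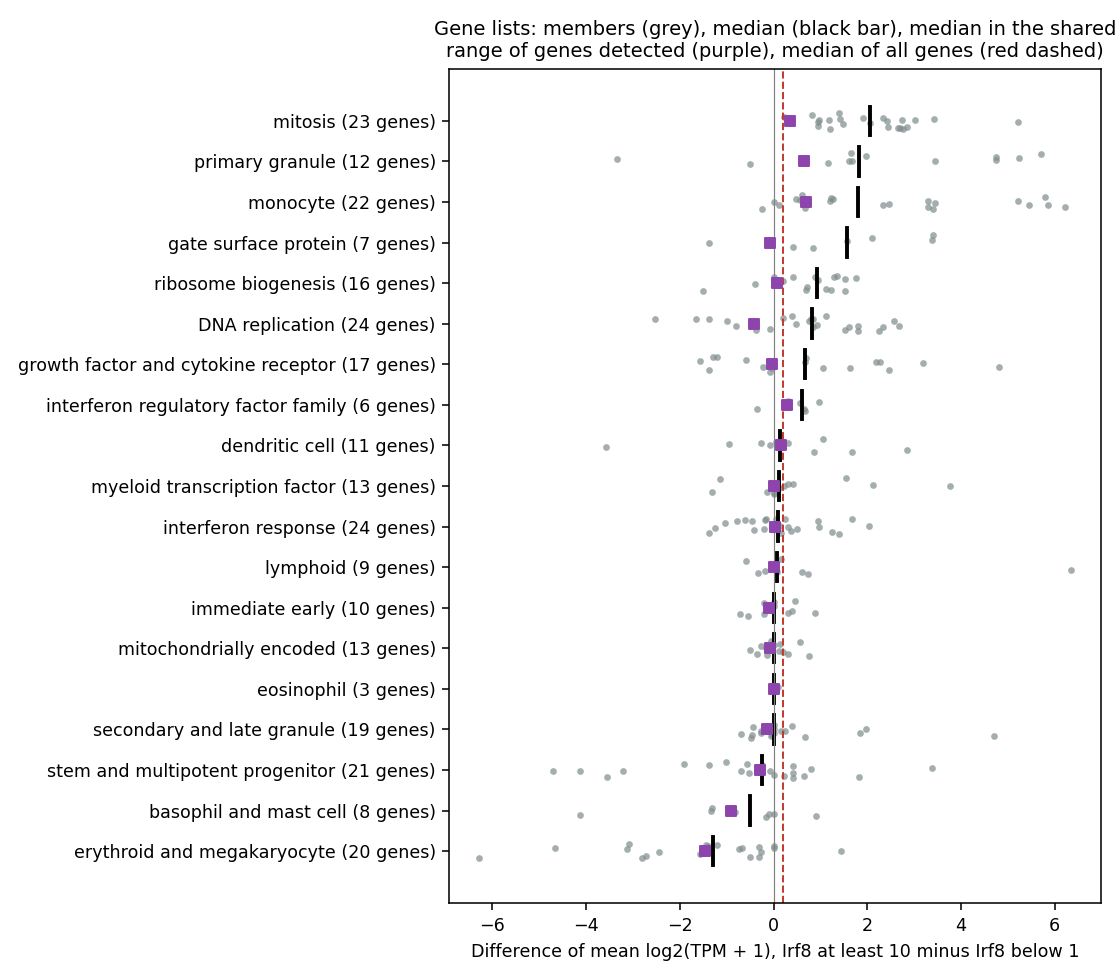
Grey points are the differences of list members (x axis, mean log2(TPM + 1) in Irf8-high minus Irf8-low CMPs), black bars the list medians, purple squares the medians in the shared range and the red dashed line the median over all 12045 genes. The erythroid list stays at -1.30 and -1.45, while the mitosis list goes from 2.06 to 0.35.

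Cell cycle genes had values that moved with the number of genes detected and with the title prefix, whose part was not tested. For mitosis, 18 of 23 genes were higher and none was lower, and the list median was 2.06. Within RHP titles 8 mitosis genes were higher and 5 lower (median 0.52), against 2553 higher (21.2%) and 1812 lower of all 12045 genes. The median was 2.99 within RMB titles, where 28.8% were higher and 7.71% lower and all 23 mitosis genes were higher. Cells of the shared range had a median of 0.35, with 8 genes higher and 1 lower. Birc5 (survivin) reached 10 TPM in 12 of 17 and 3 of 21 cells and differed by 5.21, and by 3.45 in the shared range. Ccnb1 (cyclin B1) reached 10 TPM in 10 of 17 and 2 of 21 cells and differed by 3.43 and 1.65. For DNA replication, 9 of 24 genes were higher and 3 lower; their median was 0.82 in all and -0.41 in the shared range (4 higher, 10 lower). Ribosome biogenesis had 7 of 16 genes higher and 1 lower, and its median was 0.92 in all, 0.08 in the shared range (1 higher, 2 lower) and -0.31 within RHP titles (4 higher, 5 lower). Of 10 immediate early genes and 13 mitochondrially encoded genes, 0 were higher and 0 lower in all cells. Cells of the shared range had 1 immediate early gene higher (Dusp1, 1.37) and 1 lower (Junb, -1.57), and 1 mitochondrially encoded gene higher (mt-Nd6, 1.33). Within RHP titles 2 mitochondrially encoded genes were higher and 1 lower.

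Irf8-high CMPs were not uniform. Split at 1000 TPM of Elane, a division made after the values were seen, 7 cells lay above and 10 below. The 7 cells had 4244 to 4975 genes detected (median 4771) and the 10 cells 2908 to 4262 (median 3684). Ly6c2, which with its near-identical neighbour Ly6c1 encodes the Ly6C antigen (reads may be split between them), ran from 160 to 10141 TPM in the 7 cells and reached 10 TPM in 3 of the 10. Csf1r reached 10 TPM in 6 of 7 and 3 of 10, Ms4a3 in 6 of 7 and 0 of 10, and Fcgr3 in 4 of 7 and 0 of 10. Ighm and Ly86 did not follow this division, at 7 of 7 and 7 of 10 cells and at 6 of 7 and 6 of 10 cells. Only 1 of the 7 cells lay in the shared range, so Elane level and genes detected cannot be told apart here.

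The 9 CMP cells between the thresholds were described by the same genes. Their Mpo had a median of 1928 TPM, between the medians of the sets, and 0 of 9 reached 1000 TPM of Elane. Their medians of Apoe (1686 TPM), Gata2 (400 TPM) and Car2 (191 TPM) were far above those of Irf8-high cells. At 10 TPM, 0 of 9 had Ly86, 0 of 9 had F13a1, and 3 of 9 had Gata1 or Klf1. Of these cells, 8 carried RMB titles.

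The same Irf8 thresholds were applied to the GMPs, whose cells took no part in the choice of the CMP sets. They gave 18 Irf8-high and 26 Irf8-low Ly6C- GMPs, and 73 and 18 Ly6C+ GMPs. In Ly6C- GMPs 13.2% of genes were higher and 5.29% lower, and in Ly6C+ GMPs 7.44% and 6.61%. No shared range was set for the GMPs, so their values are not matched for genes detected. The monocyte list was higher in each: 11 of 22 members were higher in Ly6C- GMPs (median 0.99) and 13 of 22 in Ly6C+ GMPs (median 1.37), with 0 lower. Ly86 differed by 5.46, 2.88 and 6.23 in CMPs, Ly6C- GMPs and Ly6C+ GMPs, and Ms4a6c by 5.85, 3.21 and 5.82. Csf1r differed by 2.47, 1.76 and 4.01. Ighm differed by 6.36, 3.33 and 3.45. All 10 genes with the largest positive CMP differences kept their direction in Ly6C- GMPs, and 6 of 10 did in Ly6C+ GMPs. In each of these labels 5 of the 10 reached 1 log2 unit.

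Granule genes had other values in GMPs. The median over primary granule genes was 1.82 in CMPs, -0.39 in Ly6C- GMPs (1 higher, 3 lower of 12) and -1.22 in Ly6C+ GMPs (1 higher, 8 lower). Elane differed by 4.76, 0.24 and -1.37, Mpo by 5.24, 0.23 and -0.64, and Ctsg by 5.71, 0.29 and -0.89. In Irf8-low GMPs these genes were already high: the median of Elane was 18798 TPM in Ly6C- and 46482 TPM in Ly6C+ GMPs, against 32.8 TPM in Irf8-low CMPs. The erythroid list, at -1.30 in CMPs, had medians of -0.08 and 0.05 in the GMPs. Apoe, at -6.48 in CMPs, differed by -0.07 and 0.27, with medians of at most 2.08 TPM in every GMP set. Cd63 alone among the 10 genes with the largest negative differences was lower by over 3 log2 units in all 3 labels, at -3.51, -4.36 and -4.86. In CMPs it differed by -1.38 within RHP titles and by -4.93 within RMB titles. At 1 log2 unit, Car2 (-6.28, -1.06 and -1.29) and Vamp5 (-4.32, -1.58 and -1.21) were also lower in all 3. The differences between labels were not tested.

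**Figure D5:**
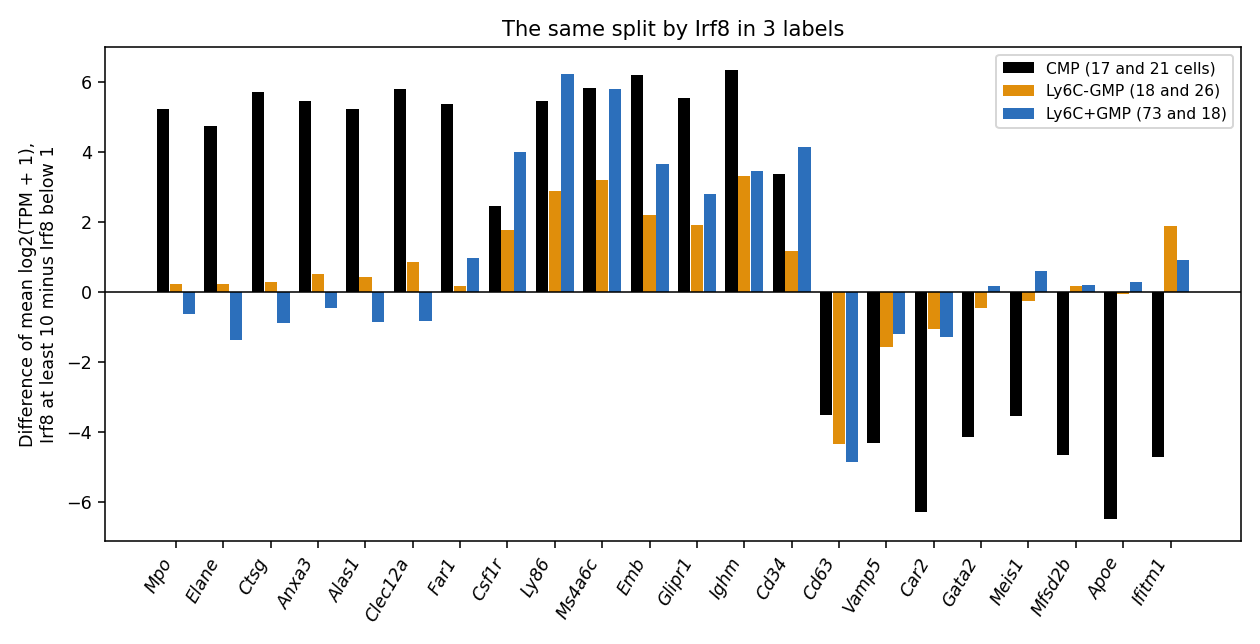
Bars are differences of mean log2(TPM + 1) between Irf8-high and Irf8-low cells (y axis) for markers and genes with large CMP differences, in CMPs (black), Ly6C- GMPs (orange) and Ly6C+ GMPs (blue). Ly86, Ms4a6c and Csf1r are above 1 in all 3 labels, Elane, Mpo and Ctsg are near or below 0 in the GMPs, and Cd63 is below -3 in all 3.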

How the data were processed

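Sorted single cells were sequenced with SMART-seq2, and each sample is 1 cell. The authors deposited 1 table of TPM values over 43280 gene symbols, made with RSEM 1.2.19 on GRCm38, per the submitters' processing notes; 25450 symbols are 0 in every cell. TPM is scaled within each cell (column totals 998703 to 1000000), so it keeps no depth, and precision is limited by genes detected. Cells were set apart by Irf8 (at least 10 or below 1 TPM). Means of log2(TPM + 1) were subtracted over genes averaging 1 TPM or more across the 281 cells, Irf8 left out, with pandas 2.3.3, numpy 2.4.6 and scipy 1.17.1. The calculation was tested on simulated data in which no gene was missing from only some cells. No difference in genes detected between the sets was planted there, so that test does not cover these features of the real cells. No doublet caller was run, since each library is 1 sorted cell.

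Coordinates are from GENCODE M21, which held 91.2% of the symbols. Reads of overlapping or antisense genes and of near-identical copies cannot be told apart in this table. Named genes are Irf8, Csf1r, Elane and Mpo; the 10 genes with the largest difference each way among those that averaged 50 TPM or more and were detected in 50% or more of the cells in the set where they were higher, the same direction in both title prefixes and in the ratio of means, and no predicted, ribosomal or mitochondrial symbol; and up to 3 members of each of 19 lists with the largest difference and at least 5 TPM. A few list members are not reported by name here. Further list members were picked after their values were seen. The members, lists and thresholds were chosen with earlier results of these data known. Alternatives varied the pseudocount, filter, Irf8 thresholds, scaling and cells; the shared range of genes detected, the removal of Gata1 or Klf1 cells and the STAT-type and PU.1-type letters were added after seeing the data.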

Additional observations from a re-analysis of the deposited data

How the results depend on the processing

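TPM keeps no depth, and Irf8-high cells had more genes detected than Irf8-low cells. The counts of higher and lower genes changed with scale and cell choice, and the part of genes detected in this was not tested. The 2662 higher genes became 1091 with a pseudocount of 10 TPM and 1768 when all cells with at least 1 TPM of Irf8 entered the high set. The 547 lower genes became 170 with a pseudocount of 10, 1047 with a pseudocount of 0.1, 2366 by the ratio of mean TPM, 929 within RMB titles, 1812 within RHP titles and 2097 in the middle range of genes detected. They became 1399 in the shared range and 866 without Gata1 or Klf1 cells. Higher genes made up 82.95% of those counted, but 58.49% within RHP titles, 47.53% by the ratio of means, 47.97% in the middle range and 56.98% in the shared range. By the ratio of means, list medians moved to 3.06 (monocyte), -0.79 (secondary and late granule) and -4.84 (erythroid and megakaryocyte). Of list medians of at least 1 log2 unit, those that changed sign were of sort surface protein genes (-0.077, shared range) and mitosis genes (-0.72, middle range). Genes named by the rule that were at least 1 log2 unit apart and changed sign were Gbp3 (-0.86), Ccnb1 (-0.11), Tpx2 (-0.16) and Nop2 (-0.23) in the middle range, and Nop2 (-0.14) by the ratio of means; the cause was not tested. Of the other values, 872 for genes and 258 for list medians moved by less than 1 SD between cells, which is a wide margin. Of these, 24 list medians and 16 gene values changed sign, each from under 1 log2 unit. Among them were DNA replication (0.82 to -1.10 in the middle range and -0.41 in the shared range), receptors (0.66 to -0.03, shared range) and ribosome biogenesis (0.92 to -0.31, RHP titles). The 6 shares checked were those of cells with Csf1r, Elane and Mpo in each set. Counted at 10 TPM, they stayed within the exact intervals of the shares at 1 TPM. Shares at 1000 TPM were not part of this check. A further 12 values for genes moved by more than 1 SD without a change of sign. No paired analysis was possible because each sample is 1 cell, the labels give no replicate number shared between the sets, and no result comes from a test.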
